A study of Mus musculus with 8 samples.

Results

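The cytosolic ribosomal protein genes were followed in the H3K56ac landscape of mouse MuSCs, the muscle stem cells (satellite cells) that lie beside the fibres of skeletal muscle. Members were chosen by name in the GENCODE vM21 annotation: protein-coding genes whose symbol is Rpl or Rps followed by a number and at most 1 letter, together with Rplp0, Rplp1, Rplp2 and Rpsa. This gave 80 of 21938 protein-coding genes, 49 encoding proteins of the large (60S) and 31 of the small (40S) subunit. They lie on 19 chromosomes, with 4 of them on the X.

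The study immunoprecipitated chromatin carrying H3K56ac, histone H3 acetylated at lysine 56, from freshly isolated MuSCs of mice on the C57BL/6 background. Controls were wild type by the labels, whereas Sirt6mKO animals had lost the H3K56ac deacetylase SIRT6 through a floxed Sirt6 allele and Cre expressed from the Pax7 locus (Pax7-ICN Cre), so that the deletion marks the Pax7 lineage and its descendants. There were 8 libraries in 4 groups of 2 replicates, namely H3K56ac and input DNA of each genotype, and input is chromatin sequenced without immunoprecipitation. The methods describe limb and trunk muscles as the source, and cells depleted of Sca1, CD45 and CD31 and sorted for Integrin-a7 and CD34 or for a reporter.

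One list of 105600 merged intervals ("peaks") over all libraries was analysed. It holds positions and widths but no column of values for a genotype or a replicate, so no depth or peak height can be read from it (read totals of the libraries, stated by the study, are not used here), and Sirt6mKO and Control cannot be told apart at any gene below. A width is that of a union: merging peaks of several libraries widens intervals and fuses those that overlap. The paper reports a global increase of H3K56ac peaks in Sirt6mKO MuSCs and describes broad peaks after loss of Sirt6. How far the shares and widths below rest on the Sirt6mKO libraries cannot be told. Values are therefore counts and widths over genes with their spread, genes are not replicates, and no statistical test was made. As a check of the labelled cell type, peaks lay within 1 kb of a transcription start site (TSS) in 8 of 8 MuSC marker genes, Pax7, Myf5, Itga7, Cd34, Vcam1, Calcr, Cdh15 and Sdc4. The same held for 65.4% of all protein-coding genes, so this count alone says little about the cell type. Of the genes for the surface proteins gated out in the sort, Ly6a (Sca1) and Ptprc (CD45) had none, and Pecam1 (CD31) had a peak within 1 kb of an annotated start but not over its main one.

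Ribosomal proteins assemble with ribosomal RNA into the subunits that decode mRNA and form peptide bonds. Their genes are classical housekeeping genes with compact bodies and CpG-rich promoters, and many harbour small nucleolar RNAs (snoRNAs) in their introns. Their mRNAs begin with a cytosine and a run of pyrimidines, the terminal oligopyrimidine (TOP) motif, through which mTORC1 and the RNA-binding protein LARP1 control their translation. Quiescent stem cells are known to keep protein synthesis low. H3K56ac itself is found at active promoters and enhancers.

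A promoter peak was defined as a peak within 1 kb of any annotated TSS of the gene. Of the 80 ribosomal protein genes, 77 had one (96.25%, Wilson 95% interval 89.5 to 98.7%), whereas the share over all protein-coding genes was 65.4%. In the same 77 genes the reference TSS, the start of 1 representative coding transcript per gene, lay inside a peak, against 57.6% of all protein-coding genes. No ribosomal protein gene had a promoter peak that missed its reference TSS, a situation met in 1697 protein-coding genes. The intervals cover counting error only.

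All 76 genes without a trailing l in their symbol had a peak over the TSS, and all 31 small-subunit genes were among the 77. The genes without a promoter peak were Rpl10l, Rpl39l and Rpl3l, which with Rps27l make up the 4 members that carry the l of a "like" paralog. Rpl10l and Rpl39l are paralogs known from the male germ line, Rpl3l is the paralog of Rpl3 known from heart and skeletal muscle, and Rps27l is a paralog of Rps27 known as a p53 target.

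Rpl10l, an intronless gene of 1023 bp on the minus strand of chromosome 12, was far from any interval. Its nearest peak lay 762702 bp upstream and was 207 bp wide. For Rpl39l on chromosome 16, the nearest peak began 22122 bp downstream and was 1779 bp wide. Neither gene had a covered base.

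Rpl3l differed from both. Its reference TSS at position 24727820 of chromosome 17 lay 1842 bp downstream of a peak of 3693 bp, chr17:24722286-24725978 on GRCm38, just outside the 1 kb window. That interval is also the widest of the 3 promoter peaks of Rps2, the ribosomal protein gene upstream of it on the same strand. It counts there only through an annotated start other than the reference TSS. The reference TSS of Rps2 lies in a separate peak of 3018 bp, chr17:24718084-24721101. A single peak entered the Rpl3l gene and covered 12.5% of its 8324 bp. With a window of 3 kb, 78 of the 80 genes had a promoter peak, against 67.8% of all protein-coding genes.

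Each like paralog was set beside its parent gene. Rpl3, a protein at the peptidyl transferase centre, had a TSS peak of 4976 bp that reached 2424 bp upstream and 2551 bp downstream. For the X-linked Rpl10, which joins late in 60S maturation, the peak of 3638 bp reached 2064 bp upstream and 1573 bp downstream. Rpl39, one of the smallest ribosomal proteins, had a TSS peak of only 1182 bp, 1004 bp of it upstream and 177 bp downstream, followed after a gap of 79 bp by a second peak of 2490 bp. Thus the parents of all 3 paralogs without a promoter peak had theirs.

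Rps27 and Rps27l were alike in having one. The Rps27 peak measured 4877 bp, with 2314 bp upstream and 2562 bp downstream, and covered the whole gene of 1130 bp. The Rps27l peak measured 3580 bp, with 1659 bp upstream and 1920 bp downstream, and covered 55.99% of 3431 bp. For Rps4x the fixed list also named Rps4l, which is annotated as a pseudogene and is therefore no member.

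The DNA at these starts is shown because the pairs differ in whether H3K56ac was called there. Each line gives 30 bases of GRCm38 in the direction of transcription, 10 before the reference TSS and 20 from it, and capitals mark a C followed by at least 4 pyrimidines that begins within 5 bases of the TSS.
Rps27 (chr3:90213632-90213661, minus strand): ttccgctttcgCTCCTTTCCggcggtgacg
Rps27l (chr9:66946076-66946105, plus strand): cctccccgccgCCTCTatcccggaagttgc
Rpl3 (chr15:80083387-80083416, minus strand): tcgcacgctcagggggcggagccatcactt
Rpl3l (chr17:24727810-24727839, plus strand): tgagtgttctagctctgtcatttgacctct
Rpl10 (chrX:74270802-74270831, plus strand): ttgttacagtggaagataggccgcctatat
Rpl10l (chr12:66284382-66284411, minus strand): cctccattttgcggctggcggtgggcacgc
Rpl39 (chrX:37085383-37085412, minus strand): cacctaccatggccaccaaggctgtggccc
Rpl39l (chr16:10170218-10170247, plus strand): aggcctttccggatttccggtggtcgccat
Both members of the Rps27 pair, each with a peak, have a tract, of 9 and 5 bases, that follows directly on a G at the annotated start. In the other pairs neither the parent with a peak nor the paralog without one has a tract in this window.

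The widest promoter peak of each gene had a median width of 3663 bp over the 77 genes (95% order-statistic interval 3510 to 3988 bp, quartiles 2966 and 4499 bp), compared with 3413 bp over the 14341 coding genes that had one (quartiles 2251 and 4910 bp). The ratio of the medians was 1.07, a difference of 0.10 on the log2 scale, and 51 of 77 genes (66.2%) exceeded the median of all genes. Their widths were less dispersed than those of all genes: 60 of 77 fell between the quartiles of all genes, and the upper quartile was 1.52 times the lower one against 2.18 times. The same ratio was 1.41 in mitochondrial ribosomal protein genes and 1.58 in proteasome genes, so a narrow spread was not confined to the cytosolic set. No ribosomal protein gene had its widest promoter peak below 1 kb, the case for 6.65% of all genes that had one. A width of at least 5 kb was reached by 13 of 77 (16.9%), against 23.9%.

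Both subunits gave nearly the same width, with a median of 3658 bp for the 46 large-subunit genes with a peak and 3664 bp for the 31 small-subunit genes. The widths also resemble those of other genes with CpG-rich starts. Among protein-coding genes with a CpG observed over expected ratio of at least 0.6 around the TSS, 93.8% had a promoter peak and the median width was 3657 bp. Of the 67 ribosomal protein genes above that ratio 65 had a promoter peak (97.0%). Of the 13 below it 12 had one (92.3%, interval 66.7 to 98.6%), against 65.4% of all protein-coding genes. The share over all protein-coding genes below the ratio was not taken separately.

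Genes that define the cell type mostly had wider peaks. The widest promoter peaks of the 8 MuSC markers ran from 7972 bp at Cdh15, which encodes M-cadherin, to 30239 bp at Myf5, a myogenic transcription factor, and that of Pax7, the transcription factor of these cells, was 21301 bp. At Cdh15, however, that interval did not hold the reference TSS, which lay in a separate peak reaching 530 bp upstream and 68 bp downstream. The ranges overlapped, since Rpl7a, Rpl35 and Rpl28 had wider peaks than the widest one of Cdh15. A single ribosomal protein gene passed 10 kb, against 3.72% of all genes that had a promoter peak.

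**Figure D1:**
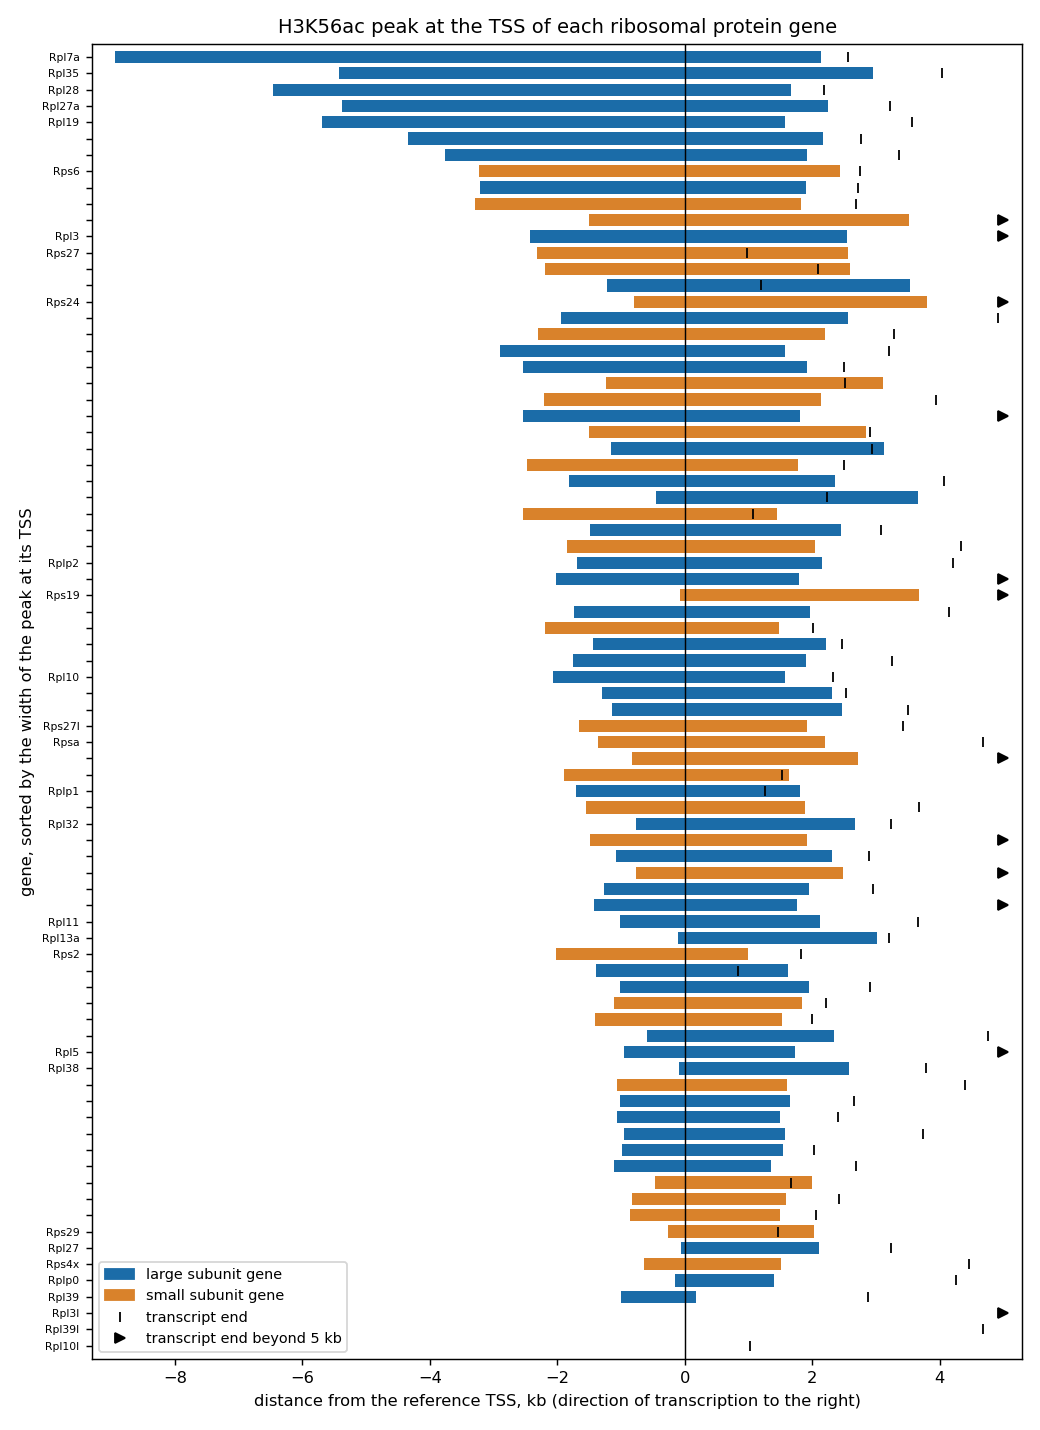
Peak over the reference TSS of each of the 80 ribosomal protein genes, one row per gene sorted by peak width, with the distance from the TSS in kb on the horizontal axis and transcription to the right. Bars are blue for large-subunit and orange for small-subunit genes, ticks mark the transcript end, only some of the rows carry a gene name, and the bottom rows without a bar are Rpl3l, Rpl39l and Rpl10l. The left ends of the bars scatter from 66 to 8946 bp, while 67 of the 77 right ends lie between 1 and 3 kb.

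The plot of all 80 genes shows where the variation in width sits. Upstream of the TSS the peaks reached a median of 1438 bp (interval 1153 to 1733 bp), with quartiles of 1004 and 2190 bp and extremes of 66 and 8946 bp. Downstream the median was 1960 bp (interval 1885 to 2174 bp), with quartiles of 1654 and 2458 bp and extremes of 177 and 3803 bp. The downstream edge was thus the tighter one, with a quartile ratio of 1.49 against 2.18 upstream. A ratio of this size was also found downstream in mitochondrial ribosomal protein genes (1.51), proteasome genes (1.50) and ribosome biogenesis genes (1.27).

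Over all protein-coding genes with the TSS in a peak, the median reach was 1321.5 bp upstream and 1799 bp downstream, with quartile ratios of 2.92 and 2.32. The peak extended farther downstream than upstream in 54 of 77 ribosomal protein genes (70.1%) and in 65.4% of all such genes. It ended between 1 and 3 kb downstream in 67 of 77 (87.0%), against 60.4%. Only Rpl39 and Rps2 had a TSS peak that ended less than 1 kb downstream.

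**Figure D2:**
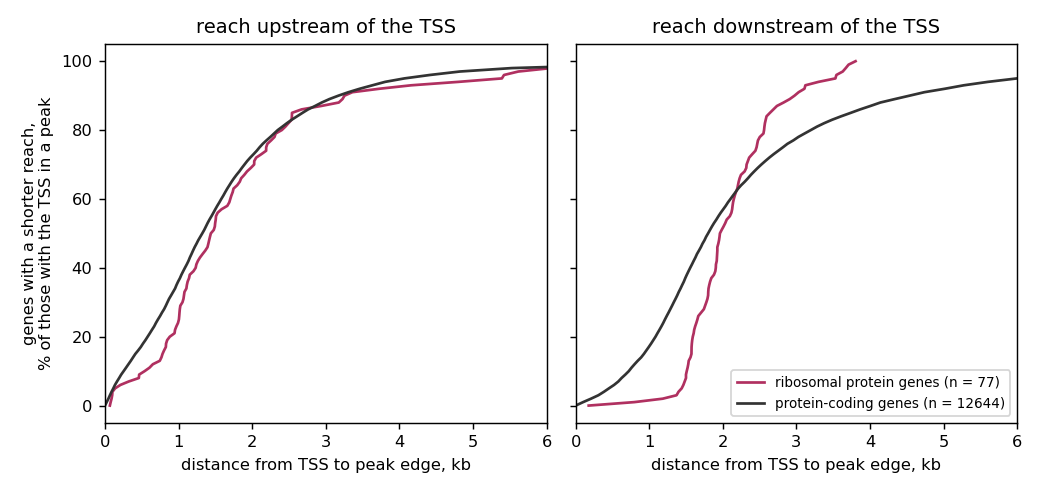
Cumulative share of genes, in % of those with the reference TSS in a peak, by the distance in kb from the TSS to the peak edge upstream (left) and downstream (right), for 77 ribosomal protein genes (red) and 12644 protein-coding genes (black). The upstream curves have medians of 1438 and 1321.5 bp, with quartiles of 1004 and 2190 bp against 719 and 2100.25 bp. The downstream curve of the ribosomal protein genes is steeper than that of all genes, with quartiles of 1654 and 2458 bp against 1213 and 2816 bp.

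Read position by position, a peak covered the TSS of 96.25% of ribosomal protein genes, 80% at 1 kb upstream and 95% at 1 kb downstream. The share was 88.75% at 1.5 kb downstream, 51.25% at 2 kb and 21.25% at 3 kb. Coding genes that had a promoter peak declined more gradually, from 88.2% at the TSS to 62.8% at 1.5 kb, 47.7% at 2 kb and 31.7% at 3 kb downstream. The curves crossed between these last positions, so at 3 kb a smaller share of the 80 ribosomal protein genes was covered than of these coding genes. Over all protein-coding genes, with or without a promoter peak, the share at 3 kb was 21.3%, nearly that of the ribosomal protein genes.

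**Figure D3:**
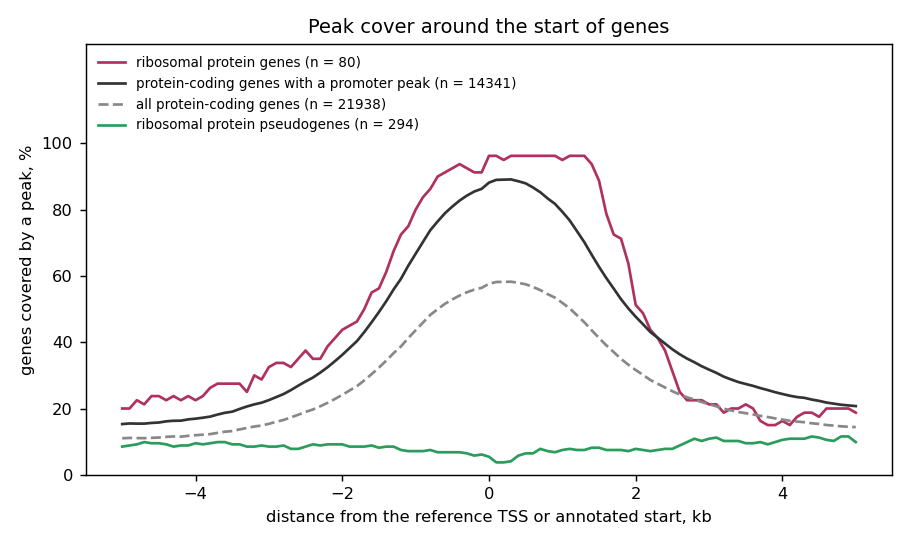
Share of genes covered by a peak, in %, at each position from 5 kb upstream to 5 kb downstream of the reference TSS or, for pseudogenes, of the annotated start. Lines are 80 ribosomal protein genes (red), 14341 protein-coding genes with a promoter peak (black), all 21938 protein-coding genes (dashed) and 294 ribosomal protein pseudogenes (green). The red line stays at or near 96.25% from the TSS to beyond 1 kb downstream and reaches 51.25% at 2 kb, and the green line has no rise at the start.

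The widest promoter peak belonged to Rpl7a, a large-subunit gene of the Surfeit gene cluster, with 11078 bp at chr2:26901818-26912895. It reached 8946 bp upstream and 2131 bp downstream. It also held the starts of Surf6, 7885 bp away, and of Med22, whose distance was not measured, both on the opposite strand. The next were Rpl35 with 8372 bp, 5423 bp of it upstream, and Rpl28 with 8132 bp, 6461 bp of it upstream. Rpl27a followed with 7634 bp and Rpl19 with 7265 bp, of which 5385 and 5690 bp lay upstream. These are the 5 genes whose peak reached at least 5 kb upstream, whereas their downstream reach of 1574 to 2948 bp was within the range of the others.

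Of these 5 genes only Rpl27a had no other coding start in its peak. The Rpl35 peak held the start of Arpc5l, that of Rpl28 the start of Tmem238, and that of Rpl19 the start of Cacnb1. Their distances from the ribosomal protein gene's TSS were 2452, 3218 and 4290 bp.

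The sequences at the starts of these widest members are shown in the same way, to compare them with the tract-bearing starts further on.
Rpl7a (chr2:26910754-26910783, plus strand): ctctcgcgatatctgcggccacttacttat
Rpl35 (chr2:39005605-39005634, minus strand): ttcgagcgccgaacagtggaagaagagaac
Rpl28 (chr7:4792864-4792893, plus strand): cccaaggcccagaggaagctgggtagccga
Rpl27a (chr7:109519137-109519166, plus strand): gaaatgaagcattggtcccgcccccgcgcc
Rpl19 (chr11:98026914-98026943, plus strand): tctccCCTTCgcagataatgggcggagcct
Only Rpl19 has a tract here, counted as 5 bases from the limit of the search, 5 bases before the annotated start. The pyrimidine run itself continues farther upstream, as the lower-case letters before the capitals show.

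At the other end stood Rplp0, which encodes the stalk base P0 and, under its older name 36B4, served the study as the reference gene for qPCR. Its promoter peak of 1543 bp reached only 147 bp upstream and 1395 bp downstream. A further peak of 1082 bp ended 84 bp upstream of it. Rps4x, the X-linked small-subunit gene, followed with 2152 bp (635 bp upstream, 1516 bp downstream) and Rpl27 with 2173 bp (66 bp upstream, 2106 bp downstream). Rps29 had 2286 bp, and its peak covered all of that gene of 1465 bp.

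The short upstream reach in Rplp0 was shared by a few genes. The TSS peak began less than 300 bp upstream in 6 of 77 (7.79%), against 11.4% of all protein-coding genes with the TSS in a peak. These were Rpl27 (66 bp), Rps19 (80 bp), Rpl38 (97 bp), Rpl13a (99 bp), Rplp0 (147 bp) and Rps29 (259 bp). Rpl38 and Rpl13a were picked out here after their values had been seen. In Rplp0, Rpl27, Rps19 and Rpl13a another interval lay directly upstream, 84, 215, 233 and 52 bp away, so that the start sat close to a gap between intervals. Rpl38 and Rps29 had none within 8 kb, their next upstream peaks being 75616 and 8074 bp away.

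Adjacent intervals of this kind were present at many members. The next peak was less than 1 kb upstream of the TSS peak in 30 of 77 genes and less than 1 kb downstream in 18. These counts were not taken over all protein-coding genes, so whether they are unusual in this list cannot be told. More than 1 promoter peak was present in 18 of 80 genes (22.5%), against 21.4% of protein-coding genes. The smallest gap, seen on inspection, was 1 bp, between the Rpl8 TSS peak of 4122 bp and an upstream peak of 6343 bp. When intervals less than 1 kb apart were joined, the median width became 4662 bp for ribosomal protein genes and 4311 bp for all genes.

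The stalk proteins P1 and P2, which recruit elongation factors to the ribosome, had wider peaks than P0. Rplp1 had 3510 bp, with 1708 bp upstream and 1801 bp downstream, and its gene of 1259 bp was covered throughout. Rplp2 had 3850 bp, with 1694 and 2155 bp. Rpsa, a small-subunit protein also known as the laminin receptor precursor, had 3564 bp, with 1354 and 2209 bp. Their starts were:
Rplp0 (chr5:115559457-115559486, plus strand): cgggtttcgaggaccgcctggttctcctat
Rplp1 (chr9:61914523-61914552, minus strand): aggcgtatatgatCTTTTCCTCagctgccg
Rplp2 (chr7:141447360-141447389, plus strand): gctgcattttgggagctgtggagccgagta
Rpsa (chr9:120127679-120127708, plus strand): gcgtgcgccagaggCTTTTTCCggagcgga
Rplp1 and Rpsa have tracts of 9 and 8 bases a few bases downstream of the annotated start, which is a G in both, and Rplp0 and Rplp2 have none in the window searched.

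Members with known regulatory roles spanned the same range. Rpl5 and Rpl11, which with 5S rRNA form the particle that binds Mdm2 and stabilises p53, had peaks of 2685 and 3135 bp, reaching 948 and 1010 bp upstream. Rps19, the gene first linked to Diamond-Blackfan anaemia, had 3759 bp, of which 3678 bp lay downstream. Rps6, the S6 kinase substrate used as a readout of mTORC1, had the widest of these, 5672 bp, with 3234 bp upstream and 2437 bp downstream. All of these but Rps6 lay between the quartiles of all protein-coding genes.

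On the X chromosome the 4 members, Rpl10, Rpl36a, Rpl39 and Rps4x, each had a promoter peak, where 46.0% of the protein-coding genes of that chromosome did. Their widest promoter peaks ran from 2152 to 3638 bp with a median of 2525 bp, below the median of 3663 bp over all members. The median over all X-linked coding genes that had one was lower still at 1830.5 bp.

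Peaks took up most of the length of these compact genes. The annotated gene had a median length of 3328.5 bp, against 17425 bp over all protein-coding genes, and a median of 68.7% of it was covered by peaks (quartiles 51.1 and 85.8%), against 7.82%. Among the 1851 protein-coding genes between the length quartiles of the members, 51.1% had a promoter peak and the median cover was 11.2%. At least 50% of the gene was covered in 61 of 80 members, against 26.1% of these length-matched genes and 9.90% of all genes. Complete cover was found in 10 members (12.5%), against 4.16% and 1.68%. Examples of completely covered genes, picked after their values were seen, are Rpl41, Rpl8, Rplp1, Rps27 and Rps29.

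Across the transcript, the TSS peak included part of exon 2 in 76 of 77 genes, the exception being Rpl39. It reached the last exon in 19 and ran past the end of the reference transcript in 12. Covered bases were not evenly spread between exons and introns. Peaks covered 50.6% of exon bases and 64.8% of intron bases, and the shares were also taken by distance from the TSS.

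Between 1 and 2 kb downstream, 78.2% of exon bases and 86.8% of intron bases of the members were covered, and between 3 and 5 kb 6.36% and 18.3%. Within the first 500 bp the shares were 94.1 and 97.1%. All these shares include the 3 members without a promoter peak. Of these, Rpl10l and Rpl39l had no covered base, and Rpl10l, which has no intron, adds to the exon bases only. The small difference in the first 500 bp therefore cannot be read as one between exons and introns of members with a peak. Over all protein-coding genes the exon share was also the lower one between 1 and 2 kb, with 35.1 and 44.6%, but not within the first 500 bp, with 59.2 and 57.0%. Exons of ribosomal protein genes have many processed copies in the genome and only reads with a single alignment were kept, but how this bears on the exon shares was not tested.

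Another coding gene often shared the TSS peak. The reference TSS of at least 1 other protein-coding gene lay in the peak of 17 of 77 members (22.1%), against 18.6% of all protein-coding genes with the TSS in a peak. In 15 of the 17 the other gene was on the opposite strand. Distances were measured for all of these pairs but Rpl7a with Med22. The closest measured was Rps28 with Ndufa7, a complex I subunit, at 10 bp. Rpl9 with Lias at 53 bp, Rpl15 with Nkiras1 at 69 bp and Rps27a, which encodes a ubiquitin fusion, with Clhc1 at 90 bp followed. Rps18 with Vps52 (135 bp), Rpl35a with Iqcg (263 bp), Rpl4 with Zwilch (271 bp), Rpl12 with Lrsam1 (304 bp) and Rps25 with Trappc4 (461 bp) were also under 1 kb. Rpl7 with Rdh10 and Rpl18 with Sphk2 were 1112 and 2864 bp apart. On the same strand were Rpl41 with Zc3h10 and Rps10 with the readthrough gene RPS10-NUDT3.

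Peaks that held a further coding start were wider, with a median of 4347 bp over 17 genes against 3537 bp over the other 60. Upstream the medians were 2190 and 1328.5 bp, and downstream 1925 and 1975.5 bp. A peak can hold a distant upstream start only if it reaches that far, so the upstream values are partly fixed by how these genes were grouped. No pair of members shared a TSS peak, since the 77 genes had 77 distinct ones.

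Intronic snoRNAs, which guide the modification of ribosomal RNA, were annotated in 29 of 80 members, 56 snoRNAs in all, with 5 of them in Rpl4. The median TSS peak was 3638 bp in the hosts and 3637.5 bp in the 48 members with a peak and no snoRNA. The median downstream reach was 1960 and 1972 bp. Hosts and other members thus differed by little on either measure.

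The promoter sequence was read in 300 bases, 250 before the reference TSS and 50 from it. The median GC content of 56% was the same as over all protein-coding genes, but CpG dinucleotides were less depleted, with a median observed over expected ratio of 0.855 against 0.556. A ratio of at least 0.6 was found in 67 of 80 members (83.75%) and in 46.8% of all genes. The members' starts thus lay largely in the CpG-rich class, in which 93.8% of genes had a promoter peak. Of the 13 members under that ratio, 12 also had one. How the CpG ratio bears on the share of members with a peak was not tested.

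A C followed by at least 4 pyrimidines began within 5 bases of the reference TSS in 27 of 80 members (33.75%, interval 24.3 to 44.6%), against 17.9% of all protein-coding genes. The tracts had a median of 9 bases in the members and of 6 bases in all genes with one. Lengths are counted from a C within these 5 bases, so a run that begins farther upstream is cut there. With at least 7 pyrimidines after the C, the shares were 23.75 and 4.36%. These shares depend on the annotated start: with RefSeq starts, available for 60 members and chosen after the data had been seen, 26 (43.3%) had a tract, and the 2 annotations placed the start a median of 24 bases apart. The share with RefSeq starts was not taken over all protein-coding genes, so the 43.3% has no matching value beside it.

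The longest tracts, shown as the clearest examples and chosen after their values were seen, were in Rps24, Rpl32 and Rps2.
Rps24 (chr14:24490708-24490737, plus strand): gtgagcggtCCTCTTTTCCTCCTCTCCagc
Rpl32 (chr6:115808728-115808757, minus strand): gccgccgCCTCTTCCTTCTTCCTCggcgct
Rps2 (chr17:24720100-24720129, plus strand): gcgcctCCCTCTTCTTCTTCTTCgggagaa
Their tracts of 18, 17 and 17 bases, counted in that way, begin within 4 bases of the TSS. Rps24 had the longest downstream reach of all members, 3803 bp of a peak of 4601 bp, and Rps2 the second shortest, 991 bp of 3018 bp. Over all members, the median width was 3622 bp with a tract and 3678.5 bp without one. A match to these letters is a description and not a functional site.

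Other promoter motifs were searched on both strands in the same 300 bases. CCGGAAG, the core bound by Ets factors such as GABP, was present in 28 of 80 members (35.0%) and in 11.2% of all promoters. AAGATGGC, a YY1-type motif, was present in 5 members (6.25% against 3.14%) and GGGCGG, the GC box of Sp1, in 42 (52.5% against 45.4%). TATAA, read on the sense strand 20 to 40 bases before the TSS, was found in 3 members (3.75% against 4.11%), namely Rpl23a, Rps2 and Rps27, named here after their values were seen. A match of CCGGAAG can overlap one of GGGCGG, and promoters, not matches, were counted.

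The motifs are shown in place in 4 members of differing width, over 80 bases before and 20 from the reference TSS, with capitals for CCGGAAG, AAGATGGC and GGGCGG on either strand and for the tract.
Rpl7a (chr2:26910684-26910783, plus strand): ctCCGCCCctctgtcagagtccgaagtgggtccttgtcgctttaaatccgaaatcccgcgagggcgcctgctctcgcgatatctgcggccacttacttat
Rps27 (chr3:90213632-90213731, minus strand): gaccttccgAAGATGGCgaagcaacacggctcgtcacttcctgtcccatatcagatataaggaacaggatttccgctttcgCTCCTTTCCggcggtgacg
Rplp2 (chr7:141447290-141447389, plus strand): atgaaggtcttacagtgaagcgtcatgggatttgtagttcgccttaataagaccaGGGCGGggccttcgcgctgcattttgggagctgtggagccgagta
Rps27l (chr9:66946006-66946105, plus strand): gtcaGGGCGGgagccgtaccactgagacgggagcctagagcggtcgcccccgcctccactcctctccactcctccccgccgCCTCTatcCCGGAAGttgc
Rpl7a shows a GC box on the opposite strand, Rps27 the YY1-type motif, a tract and, left in lower case, TATAA, Rplp2 a GC box, and Rps27l a GC box, a tract and the Ets-type motif. Their widest promoter peaks measured 11078, 4877, 3850 and 3580 bp.

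**Figure D4:**
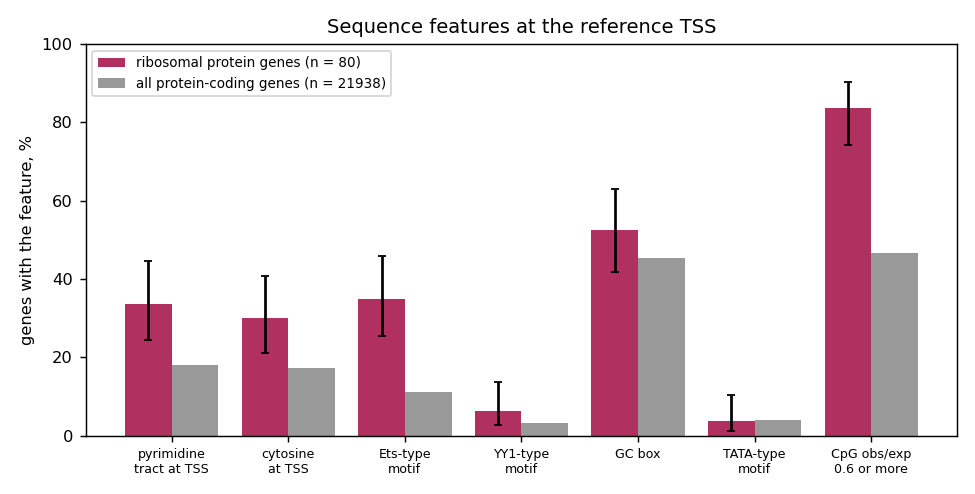
Share of genes in % with each sequence feature at the reference TSS, for 80 ribosomal protein genes (red) and 21938 protein-coding genes (grey). Error bars are Wilson 95% intervals of counting error. The red bar is above the grey one beyond its interval for the pyrimidine tract, the cytosine at the TSS, the Ets-type motif and the CpG ratio, and the intervals of the other motifs include the grey value.

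Widths with and without each motif overlapped. The 27 members with a promoter peak and CCGGAAG had a median width of 3564 bp and the 50 without it of 3793.5 bp, with ranges of 2363 to 7634 bp and 1543 to 11078 bp. The 5 members with AAGATGGC had a median of 4877 bp, within the range of the rest, whose median was 3658 bp. With GGGCGG the median was 3850 bp and without it 3542 bp. Rpl39l carries CCGGAAG and has no promoter peak.

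Other housekeeping families were read the same way. The mitochondrial ribosomal protein genes (Mrpl and Mrps) had a promoter peak in 78 of 78, with a median width of 3121.5 bp, and the proteasome genes in 38 of 39, with 3229 bp. The share was 65.4% over all protein-coding genes and 93.8% over those with a CpG ratio of at least 0.6. The order of the medians was cytosolic ribosomal protein, proteasome and mitochondrial ribosomal protein genes, and their quartiles overlapped. The mitochondrial set reached 1564.5 bp upstream and 1434 bp downstream, so that only 51.3% of those genes had the longer side downstream, against 70.1% in the cytosolic set. Their gene cover was a median of 23.8%, with a median gene length of 7899.5 bp.

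Ribosomal protein pseudogenes, mostly copies of the mRNAs inserted elsewhere, carry the sequence of the transcript without its promoter. Of 294 such pseudogenes, 36 had a peak within 1 kb of the annotated start (12.2%, interval 8.98 to 16.5%), against 8.12% of 10236 processed pseudogenes and 96.25% of the functional genes. In 16 of the 36 the start itself lay in a peak. Of these 36, 12 were inside a protein-coding gene and 23 were over 5 kb from any coding reference TSS. Away from other genes, 13 of 186 (6.99%) had a peak. As for the exons, the part of repeated sequence in these shares was not tested.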

How the data were processed

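H3K56ac ChIP-seq and input libraries of freshly isolated MuSCs (2 replicates per group, 4 groups) were processed by the authors. They trimmed reads, aligned them to mm10 with Bowtie keeping single alignments, removed duplicates, called peaks with MACS2, dropped blacklisted regions and merged overlapping peaks; the submitters' notes name FastQC, Bowtie, SAMtools and deepTools. The deposited list holds interval coordinates, and its score column as deposited was 0 in every row (0 columns of values per sample). Libraries came from cells sorted in 2 replicates whose separate animals the labels do not state.

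Intervals were compared with GENCODE vM21 on GRCm38, the same build as mm10, in Python 3.11.15 with numpy 2.4.6, scipy 1.17.1 and matplotlib 3.10.9. A promoter peak overlapped the window within 1 kb of any annotated TSS. The reference TSS was that of 1 coding transcript per gene, chosen by APPRIS level, then GENCODE basic, CCDS, support level and length. Reach is the distance from that TSS to the peak edge. Shares have Wilson 95% intervals and medians order-statistic intervals. The scripts were tested on simulated data. Named genes were the members without a promoter peak, the 5 with the widest and the 5 with the narrowest, like-paralog pairs, stalk genes and Rpsa, Rps19, Rpl5, Rpl11, Rps6, and members sharing a peak with another coding TSS. Results for some genes the rule names are not reported here. The members, lists and rules were chosen with earlier results of these data known. Sequences were read from GRCm38, and RefSeq starts from its GRCm38 gene table.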

Additional observations from a re-analysis of the deposited data

How the results depend on the processing

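For 8 results, 37 alternative values were computed. Of these 28 lay within the interval of the main value and 9 moved beyond it. Without the members ending in l, the share with a promoter peak and the share with the TSS in a peak were both 100%. Joining intervals less than 1 kb apart gave a median width of 4662 bp, an upstream reach of 1897 bp and a downstream reach of 2224 bp, and the corresponding medians over all protein-coding genes rose to 4311, 1665.5 and 2153 bp. A pyrimidine tract was found in 60.0% of members when it could begin within 15 bases of the TSS (40.9% of all genes) and in 23.75% when at least 7 pyrimidines had to follow the C. For pseudogenes the share was 21.8% within 3 kb and 6.99% away from other genes. No paired analysis was possible because the list holds no values per sample, and leaving out a replicate was not possible for the same reason. The list gives no depth, so a missing peak shows only that none was called, and widths are those of a union over libraries of both genotypes.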

Other observations

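Ribosome components that the naming rule misses also had promoter peaks. Fau, whose product is a ubiquitin-like fusion with the small-subunit protein S30, had 3114 bp, Rps3a1 had 3452 bp and Rack1, a scaffold on the small subunit, had 7492 bp. Of the paralogs outside the rule, Rpl22l1, Rpl36al and Rpl7l1 had promoter peaks of 3241, 3237 and 2815 bp, and Rps27rt, a retrogene of Rps27, had none.

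Other mRNAs known for a TOP start had promoter peaks in 16 of 16 genes, with a median width of 4838.5 bp, from 1950 bp at Eef1a1 to 8051 bp at Naca. Genes of ribosome biogenesis had them in 17 of 17, with a median of 3294 bp. Among genes of mTORC1 and LARP1 control, all 11 had a promoter peak, with a median of 5215 bp. The translational repressor Eif4ebp1 had the widest of these, 10735 bp, and Tsc1, an inhibitor of mTORC1, the narrowest, 1511 bp. For comparison, a promoter peak was present in 65.4% of all protein-coding genes and in 93.8% of those with a CpG ratio of at least 0.6.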
